A study of Mus musculus with 10 samples.

Results

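Glucose handling by the kidney was examined through 9 genes, taken by symbol from the 13299 genes of the deposited table: the glucose carriers Slc5a2, Slc5a1, Slc2a1 and Slc2a2, and the gluconeogenesis genes Pck1, Pck2, G6pc, Fbp1 and Slc37a4. All 9 were found, and all 9 passed the filter on low values with 13236 genes in total. The samples were whole kidneys of mice aged 1.5 years, 5 from heterozygous knock-in Rragc S74N/+ animals and 5 from wild-type Rragc +/+ animals. RagC is a small GTPase through which the supply of nutrients activates mTORC1, and the S74N change, introduced together with silent changes by Cas9 editing of embryos, locks it in its active, GDP-bound form. The allele is present in every cell of the mouse from conception, so a kidney carries it in the tubule, in the vessels and in any blood-borne cell alike, and no group separated these compartments. The labels give neither sex nor diet for these mice and name no treatment.

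The kidney filters plasma glucose at the glomerulus and takes it back in the proximal tubule. In the early segments of this tubule SGLT2 (Slc5a2), a sodium-coupled carrier of high capacity, lifts glucose across the apical membrane, and further along SGLT1 (Slc5a1), a carrier of high affinity, collects what remains. Glucose then leaves the cell on the blood side through the facilitative carriers GLUT2 (Slc2a2) and GLUT1 (Slc2a1). The same tubule cells, chiefly in the later segments, also make glucose from lactate, glutamine and glycerol: PEPCK (cytosolic Pck1, mitochondrial Pck2) forms phosphoenolpyruvate from oxaloacetate, fructose-1,6-bisphosphatase (Fbp1) and glucose-6-phosphatase (G6pc) carry out the later irreversible steps, and the transporter Slc37a4 brings glucose-6-phosphate to G6pc in the endoplasmic reticulum.

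RNA was measured by QuantSeq, which sequences the 3′ ends of polyadenylated transcripts, and levels are normalized counts, that is reads per gene divided by a size factor of the library. Each library held 4488493 to 5797251 reads, recovered from these values, and no pair of libraries agreed within counting noise (lowest chi-square over degrees of freedom 4.29), so none was a copy of another. Normalized counts of Rragc itself averaged 146.5 (SD 42.7) in wild-type and 123.7 (SD 26.4) in mutant kidneys, 5 each, a log2 fold change of -0.22 with an adjusted p of 0.51 (limma). QuantSeq reads cover transcript ends, far from the edited codon, so this value does not check the genotype. Rragc S74N/+ replicate 1 stood apart from every other library, at a chi-square over degrees of freedom of 27.7 to 57.7. Pairs without it gave 4.29 to 19.8. This library also stood apart in the mean RNA level of proximal tubule markers. The mean log2 level of 12 proximal tubule markers lay 0.68 below the mean over all samples in this library (an offset of -0.68), against offsets of -0.10 to 0.14 in the other Rragc S74N/+ kidneys and 0.041 to 0.19 in Rragc +/+ kidneys. For many of the genes and ratios below, the value without this library is given as well.

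Of the 9 genes, Slc5a2 fell and Pck1 rose in Rragc S74N/+ kidneys at an adjusted p under 0.05 (limma on log2 of the normalized count plus 1, Benjamini-Hochberg adjustment over 13236 genes). Among all tested genes 6.03% passed this threshold, 3.45% higher and 2.58% lower. Slc2a2 had a mean lower by 30.0% and Pck2 a mean higher by 63.0%, and neither passed it. The groups did not overlap for Slc5a2 alone of the 9, against 8.16% of the genes tested. The median log2 fold change was -0.22 over the 9 genes and -0.01 over all tested genes. In whole kidney, fewer cells of a type and less RNA per cell cannot be told apart.

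**Figure D1:**
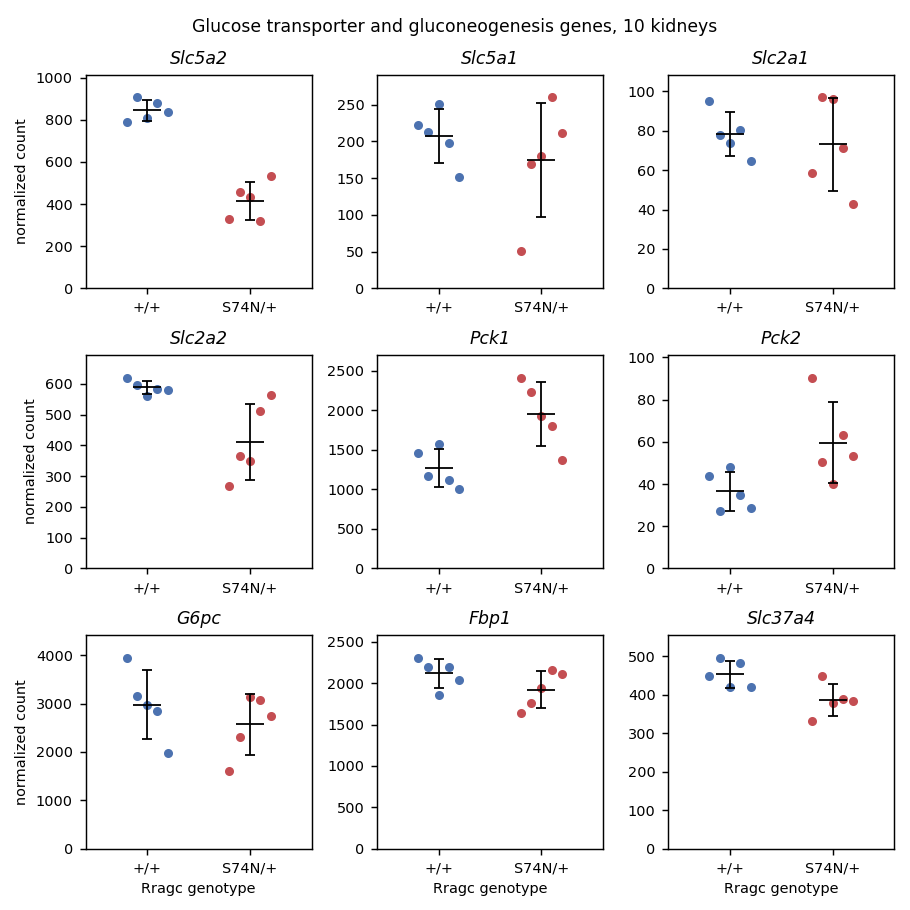
Normalized counts (vertical axis, starting at 0) of the 9 genes in each kidney by Rragc genotype. Points are single kidneys in the order of replicates 1 to 5, and the bar and whiskers are the mean and SD (n = 5). Slc5a2 shows 2 clouds with a gap from 532 to 791, whereas 4 of 5 Rragc S74N/+ kidneys lie above the Rragc +/+ range for Pck1 and 4 of 5 below it for Slc2a2.

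Slc5a2, the apical carrier of the early proximal tubule, had 791, 906, 810, 881 and 835 normalized counts in Rragc +/+ replicates 1 to 5. It had 331, 458, 435, 320 and 532 in Rragc S74N/+ replicates 1 to 5, so every mutant kidney lay below the lowest wild-type kidney. The means were 845 ± 48.2 and 415 ± 89.7 (SD, n = 5), a decrease of the mean by 50.8%. The log2 fold change was -1.05 ± 0.14 (SE), with a 95% confidence interval of -1.34 to -0.76 (limma, adjusted p = 0.00048). The spread was also wider in the mutant group, with a coefficient of variation of 21.6% against 5.70%. Behind these values stood 314 to 1009 reads per library. Without Rragc S74N/+ replicate 1, the log2 fold change was -0.97 (limma, adjusted p = 6.5e-05).

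Slc5a1, the apical carrier of the later segments, had 223, 212, 251, 197 and 151 normalized counts in Rragc +/+ replicates 1 to 5. In Rragc S74N/+ kidneys it had 50.4, 170, 180, 260 and 211, so the groups overlapped widely and replicate 1 was far below the other 4. The log2 fold change was -0.41 ± 0.32 (SE), with an interval of -1.09 to 0.27 (limma, adjusted p = 0.45). Without Rragc S74N/+ replicate 1 it was -0.013. This interval includes the change measured for Slc5a2, and the ratio of the carriers within each kidney was used to test their difference. Slc5a2 to Slc5a1 was 4.21 ± 0.89 in Rragc +/+ and 3.09 ± 2.03 in Rragc S74N/+ kidneys (SD, n = 5), which did not differ beyond the threshold in an exact two-sided permutation test (p = 0.16, adjusted p = 0.40 over 5 ratios). In Rragc S74N/+ replicate 1 the ratio was 6.57, and in the other 4 mutant kidneys it lay between 1.23 and 2.70, below the wild-type range of 3.23 to 5.52. Without that library, which had the highest ratio, the log2 difference went from -0.64 to -0.96 (exact permutation test, adjusted p = 0.020). Of the 10 fits that left out 1 library, it was the 1 that passed, with adjusted p up to 0.71 over them (exact permutation tests).

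Pdzk1ip1 (MAP17), the small membrane protein that SGLT2 needs for its activity, was the called gene among the other sugar transporters and their partners, of which 13 of 16 were tested, 0 rose and 1 fell. It had 2476, 2782, 2230, 2306 and 1910 normalized counts in Rragc +/+ replicates 1 to 5 and 735, 1569, 1527, 1577 and 1509 in Rragc S74N/+ replicates 1 to 5. The groups did not overlap, and the log2 fold change was -0.80 ± 0.19 (SE; limma, adjusted p = 0.020). It was -0.59 without Rragc S74N/+ replicate 1, and it did not pass the threshold without Rragc +/+ replicate 1 or replicate 2 (limma, adjusted p up to 0.066). The other members of the list with the highest levels did not pass. Slc5a12, a sodium-coupled lactate carrier of the early proximal tubule, had 1314 ± 307 and 1206 ± 304 normalized counts (SD, n = 5; log2 fold change -0.13 ± 0.18). Slc5a3, a myo-inositol carrier, had 579 ± 76.2 and 407 ± 156 (SD, n = 5; log2 fold change -0.57 ± 0.19, limma, adjusted p = 0.079), and passed without Rragc S74N/+ replicate 3 (limma, adjusted p = 0.0046).

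The promoters of Slc5a1 and Pdzk1ip1 are shown because both hold the palindrome CACGTG, which TFE3, TFEB and other basic helix-loop-helix factors can bind, while Pdzk1ip1 fell and Slc5a1 did not pass, a difference that was not tested. Windows ran from 250 bases before to 50 bases after the start site (RefSeq, build GRCm38.p6), and capitals mark the motif. The window of Slc5a1 was chr5:33103969-33104268 and that of Pdzk1ip1 chr4:115088458-115088757, both on the plus strand. Slc5a2 had no entry in the promoter table.
Slc5a1 promoter: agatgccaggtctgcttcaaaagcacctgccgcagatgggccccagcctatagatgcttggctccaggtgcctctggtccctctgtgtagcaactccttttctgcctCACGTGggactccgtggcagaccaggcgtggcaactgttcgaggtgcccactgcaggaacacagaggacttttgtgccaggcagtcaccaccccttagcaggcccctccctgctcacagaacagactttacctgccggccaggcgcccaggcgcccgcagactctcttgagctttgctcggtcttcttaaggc
Pdzk1ip1 promoter: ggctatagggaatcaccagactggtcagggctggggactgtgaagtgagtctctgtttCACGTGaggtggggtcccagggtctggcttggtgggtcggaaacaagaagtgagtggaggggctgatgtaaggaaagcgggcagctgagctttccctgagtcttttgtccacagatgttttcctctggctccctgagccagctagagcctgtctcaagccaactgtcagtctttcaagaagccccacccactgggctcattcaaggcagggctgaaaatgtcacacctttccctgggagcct
The motif began 143 bases before the start in Slc5a1 and 192 bases before it in Pdzk1ip1. Of 32851 mouse promoter windows of this length, 7.15% held CACGTG, which reads the same on both strands. Among the 8 of the 9 genes with a window it was found in Slc5a1. Of the pathway genes named below, Fbp2 and Khk held it as well. A match describes these letters only and is not evidence of binding.

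Slc2a2, the main exit route for glucose on the blood side, had 621, 597, 562, 584 and 581 normalized counts in Rragc +/+ replicates 1 to 5, a coefficient of variation of 3.72%. In Rragc S74N/+ replicates 1 to 5 it had 268, 366, 349, 512 and 565, so 4 of 5 lay below the wild-type range and replicate 5 lay within it. The means were 589 ± 21.9 and 412 ± 123 (SD, n = 5). The log2 fold change of -0.57 ± 0.17 (SE), with an interval of -0.92 to -0.21, missed the threshold (limma, adjusted p = 0.055). DESeq2 on the recovered reads (adjusted p = 0.044), robust eBayes (limma, adjusted p = 0.046) and a block for the number range in the sample labels (limma, adjusted p = 0.035) each put it past the threshold, whereas edgeR did not (adjusted p = 0.071), and adjusted p ran from 0.035 to 0.72 over its 15 alternatives. Leaving out Rragc S74N/+ replicate 4 or replicate 5 did so as well (limma, adjusted p = 0.045 and 0.030), and the log2 fold change was -0.42 without replicate 1. Scaling to equal proximal tubule marker levels gave -0.32.

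The sample numbers in the labels fall into a lower range, with 3 kidneys of each genotype, and a higher range, with 2 of each. What the ranges stand for is not stated. Slc2a2 differed between genotypes by -0.87 on the log2 scale within the lower range (limma, adjusted p = 0.074) and by -0.11 within the higher range (limma, adjusted p = 0.72). Slc5a2 gave -1.04 and -1.05 in these ranges and passed in both (limma, adjusted p = 0.031 and 0.00033). The ratio of Slc5a2 to Slc2a2, the apical entry step over the basolateral exit step, was 1.27, 1.52, 1.44, 1.51 and 1.44 in Rragc +/+ replicates 1 to 5 and 1.24, 1.25, 1.25, 0.62 and 0.94 in Rragc S74N/+ replicates 1 to 5. The groups did not overlap, with a log2 difference of -0.48 (exact two-sided permutation test, p = 0.0079, the smallest that 252 allocations can give, adjusted p = 0.040 over 5 ratios). The gap between the groups was narrow, from 1.25 to 1.27, and the call was lost in 6 of 10 fits that left out 1 library, among them the one without Rragc S74N/+ replicate 4, where the log2 difference was -0.30, and all 5 that left out a Rragc +/+ kidney (exact permutation tests, adjusted p = 0.16 to 0.28). The groups still did not overlap in these fits. With groups of unequal size, this test does not always give its smallest p to groups that do not overlap. The lost calls thus do not show that the difference rested on a single Rragc +/+ kidney.

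Slc2a1, a basolateral carrier of later nephron segments and of many other cells, had 95.1, 78.0, 73.9, 80.3 and 64.7 normalized counts in Rragc +/+ replicates 1 to 5. It had 58.7, 96.9, 96.0, 71.3 and 42.7 in Rragc S74N/+ kidneys, with 2 below and 2 above the wild-type range. The log2 fold change was -0.15 ± 0.22 (SE), with an interval of -0.61 to 0.31 (limma, adjusted p = 0.70). The ratio of Slc2a2 to Slc2a1 was 7.61 ± 0.89 and 6.48 ± 4.03 (SD, n = 5; exact permutation p = 0.25, adjusted p = 0.41). Rragc S74N/+ replicate 5, with the lowest Slc2a1 and the highest mutant Slc2a2, had the highest ratio, 13.2. Without it the log2 difference went from -0.41 to -0.71 (exact permutation test, adjusted p = 0.040). That fit was the 1 that passed of the 10 that left out 1 library, with adjusted p up to 0.71 over them (exact permutation tests).

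Pck1, which commits oxaloacetate to glucose, moved the other way. It had 1454, 1163, 1577, 1119 and 1008 normalized counts in Rragc +/+ replicates 1 to 5 and 2412, 2231, 1930, 1805 and 1368 in Rragc S74N/+ replicates 1 to 5. All mutant kidneys but replicate 5 lay above the highest wild-type kidney. The means were 1264 ± 240 and 1949 ± 404 (SD, n = 5), a rise of the mean by 54.2%. The log2 fold change was 0.62 ± 0.16 (SE), with an interval of 0.28 to 0.95 (limma, adjusted p = 0.032). edgeR and DESeq2 on the recovered reads also called it (adjusted p = 0.031 and 0.0062). The call depended on single libraries: it was lost without Rragc +/+ replicate 2, 4 or 5 and without Rragc S74N/+ replicate 2 or 4, with log2 fold changes of 0.53 to 0.74 and adjusted p of 0.019 to 0.088 over the 10 fits. Without Rragc S74N/+ replicate 1 the log2 fold change was 0.53, and within the lower and the higher range of label numbers it was 0.65 and 0.56 (limma, adjusted p = 0.14 and 0.012).

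Pck2, the mitochondrial isoform, had 43.6, 27.0, 48.0, 34.9 and 28.9 normalized counts in Rragc +/+ replicates 1 to 5 and 90.5, 50.4, 40.0, 63.1 and 53.4 in Rragc S74N/+ replicates 1 to 5. It too had 4 of 5 mutant kidneys above the wild-type range, yet the values rest on 26 to 97 reads per library. Its log2 fold change of 0.67 ± 0.24 (SE), with an interval of 0.17 to 1.17 (0.51 without Rragc S74N/+ replicate 1), remained short of the threshold (limma, adjusted p = 0.099). Pck1 gave 97.2% ± 0.30 of the counts of both isoforms in Rragc +/+ and 97.0% ± 0.82 in Rragc S74N/+ kidneys (SD, n = 5). The ratio of Pck1 to Pck2 was 35.2 ± 4.47 and 34.7 ± 10.7 (SD, n = 5; exact permutation p = 0.80, adjusted p = 0.93).

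**Figure D2:**
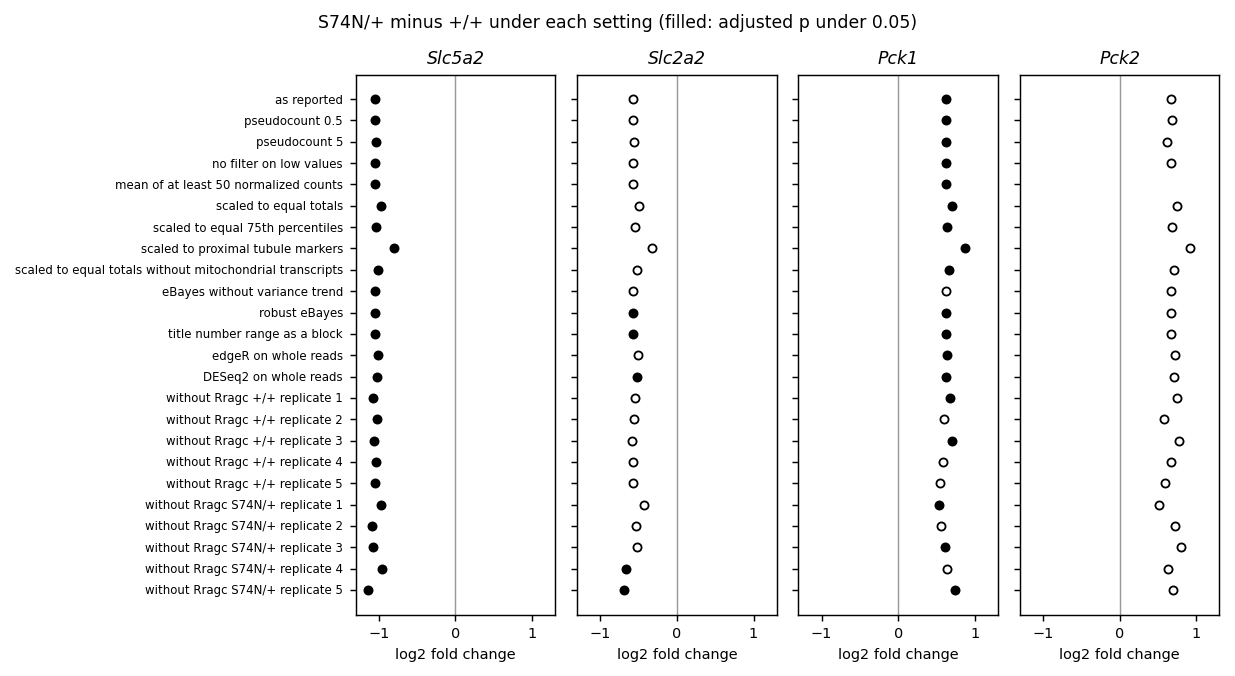
Log2 fold change (horizontal axis, Rragc S74N/+ minus Rragc +/+) of Slc5a2, Slc2a2, Pck1 and Pck2 as reported, under other settings and without each library in turn (vertical axis). Filled points passed an adjusted p under 0.05. Slc5a2 is filled in every setting shown and Pck2 in none, while Pck1 and Slc2a2 cross the threshold with little change in the fold.

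The promoter of Pck1 is shown because it holds TTACGTCA, a cAMP response element through which this gene is classically induced, and capitals mark it. The window was chr2:173152823-173153122 (RefSeq, build GRCm38.p6, plus strand, the same distances from the start as above).
Pck1 promoter: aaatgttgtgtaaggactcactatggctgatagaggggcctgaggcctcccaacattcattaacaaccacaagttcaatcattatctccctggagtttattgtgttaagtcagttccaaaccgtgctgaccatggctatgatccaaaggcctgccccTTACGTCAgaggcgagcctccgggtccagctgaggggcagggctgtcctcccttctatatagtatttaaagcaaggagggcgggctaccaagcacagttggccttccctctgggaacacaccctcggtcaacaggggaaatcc
The element began 93 bases before the start. TTACGTCA, or TGACGTAA on the other strand, occurred in 0.499% of the 32851 windows and in Pck1 alone of the 8 genes with a window. The full palindromic element TGACGTCA occurred in 1.79% of windows and in 0 of these 8 genes. The motifs searched were chosen after the values had been seen.

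Fbp1, the fructose-1,6-bisphosphatase of liver and kidney, had 2309, 2194, 1863, 2196 and 2037 normalized counts in Rragc +/+ replicates 1 to 5 and 1635, 1758, 1944, 2154 and 2116 in Rragc S74N/+ replicates 1 to 5. Its log2 fold change was -0.15 ± 0.11 (SE), with an interval of -0.38 to 0.09 (limma, adjusted p = 0.43). G6pc, the catalytic subunit that releases free glucose, had 3949, 3149, 2976, 2837 and 1971 in Rragc +/+ and 1598, 2307, 3129, 3076 and 2741 in Rragc S74N/+ kidneys. It was -0.22 ± 0.19 (SE), with an interval of -0.62 to 0.19 (limma, adjusted p = 0.50). The groups overlapped for both genes, and the lowest value of each was in Rragc S74N/+ replicate 1, without which the log2 fold changes were -0.090 for Fbp1 and -0.057 for G6pc. The upper bounds of both intervals, 0.09 and 0.19, lay below the lower bound of 0.28 for Pck1, and the difference itself was not tested.

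Slc37a4, which feeds G6pc, had 449, 496, 419, 483 and 421 normalized counts in Rragc +/+ replicates 1 to 5 and 332, 448, 379, 388 and 383 in Rragc S74N/+ replicates 1 to 5, with 4 of 5 mutant kidneys below the wild-type range. The log2 fold change was -0.24 ± 0.11 (SE), with an interval of -0.47 to -0.00036 (limma, adjusted p = 0.20). Without Rragc S74N/+ replicate 1 it was -0.18 (limma, adjusted p = 0.32). The ratio of G6pc to Slc37a4 was 6.56 ± 1.53 and 6.66 ± 1.59 (SD, n = 5; exact permutation p = 0.93, adjusted p = 0.93). When samples were scaled to equal proximal tubule marker levels, Slc2a1, G6pc, Fbp1 and Slc37a4 had log2 fold changes of 0.093, 0.030, 0.10 and 0.011 in place of values below 0, and none passed in either scaling.

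**Figure D3:**
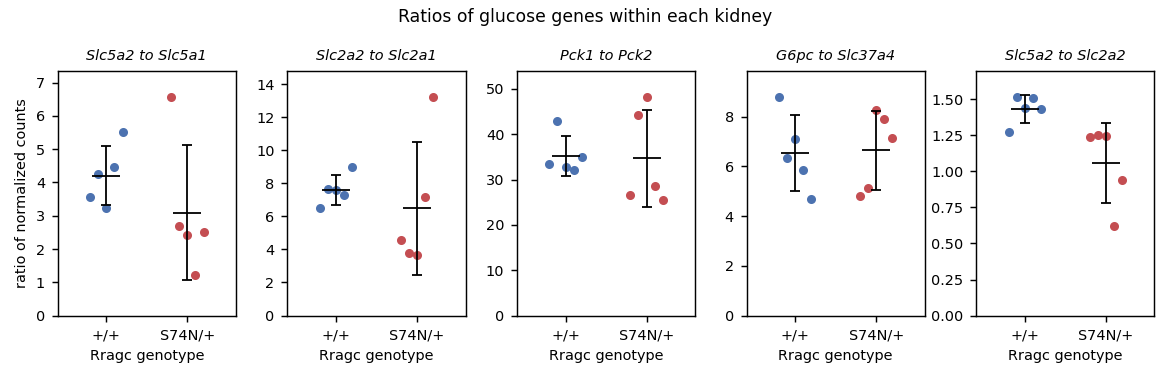
Ratios of normalized counts of 2 genes within each kidney (vertical axis, starting at 0) by Rragc genotype, with the mean and SD (n = 5). The groups are apart for Slc5a2 to Slc2a2, and Rragc S74N/+ replicate 1 (6.57, Slc5a2 to Slc5a1) and replicate 5 (13.2, Slc2a2 to Slc2a1) lie far above the other mutant kidneys.

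Since each read marks the 3′ end of a transcript, counts of different genes can be compared without a length correction, though the yield of the 3′ priming may differ by gene. In Rragc +/+ kidneys the mean normalized counts ran from G6pc (2976) through Fbp1 (2120), Pck1 (1264), Slc5a2 (845), Slc2a2 (589), Slc37a4 (454), Slc5a1 (207) and Slc2a1 (78.4) to Pck2 (36.5). In this order the ranges of neighbours overlapped for G6pc and Fbp1 alone. In Rragc S74N/+ kidneys Pck1 (1949) stood in the place after G6pc (2570), and Fbp1 (1921) came next. There Slc5a2 (415), Slc2a2 (412) and Slc37a4 (386) were close, with overlapping ranges for each neighbouring pair. The ranges of G6pc and Pck1, of Pck1 and Fbp1, of Slc5a1 and Slc2a1 and of Slc2a1 and Pck2 overlapped as well. Together the 9 genes took 0.173% ± 0.022 of all normalized counts in Rragc +/+ and 0.170% ± 0.013 in Rragc S74N/+ kidneys (SD, n = 5).

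Around these 9 genes, 66 of 71 genes of 4 pathway lists were tested, of which 2 rose (3.03%) and 9 fell (13.6%). Among all tested genes 3.45% rose and 2.58% fell, and these shares stand beside the counts of each single list too. The median log2 fold change was -0.19 over the 66 genes and -0.01 over all tested genes. Of the other steps of gluconeogenesis and the malate-aspartate and pyruvate shuttles, 18 of 19 were tested, 0 rose and 5 fell. Tpi1, triosephosphate isomerase, went from 720 ± 121 to 467 ± 60.2 normalized counts (SD, n = 5; log2 fold change -0.62 ± 0.13, limma, adjusted p = 0.013). Got2 and Got1, the mitochondrial and cytosolic aspartate aminotransferases of the malate-aspartate shuttle, fell by 0.61 and 1.06 on the log2 scale (limma, adjusted p = 0.023 and 0.026). Ldhb, the lactate dehydrogenase subunit that favours pyruvate formation, had a log2 fold change of -0.45 (limma, adjusted p = 0.047). Fbp2, the muscle isoform of fructose-1,6-bisphosphatase, was low, with 35.7 ± 13.2 and 14.9 ± 7.86 normalized counts (SD, n = 5; log2 fold change -1.28, limma, adjusted p = 0.040), and its groups overlapped. Tpi1 kept its call without each library in turn, and Got2, Got1, Ldhb and Fbp2 lost theirs in 4, 5, 8 and 8 of 10 such fits. Without Rragc S74N/+ replicate 1, Got2, Got1 and Ldhb fell by 0.47, 0.79 and 0.34. Under the proximal tubule scaling Got1 passed (limma, adjusted p = 0.039), and Tpi1, Got2, Ldhb and Fbp2 did not. Pgam1, a phosphoglycerate mutase, was among the steps with the highest levels that were not called, with a log2 fold change of -0.04 that was 0.20 under the proximal tubule scaling.

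Of 16 genes that supply substrates, all 16 were tested, 1 rose and 2 fell. Slc16a7 (MCT2), a carrier of lactate and pyruvate, went from 257 ± 27.5 to 54.5 ± 16.6 normalized counts (SD, n = 5), and every mutant kidney lay below the lowest wild-type kidney at 211. Its log2 fold change of -2.26 ± 0.19 (SE) was the furthest from 0 in the 4 lists (limma, adjusted p = 4.6e-06). Slc6a19, the apical carrier of neutral amino acids, fell from 418 ± 89.0 to 152 ± 34.8 (SD, n = 5; log2 fold change -1.46 ± 0.19, limma, adjusted p = 0.00043). Its log2 fold change was -1.31 without Rragc S74N/+ replicate 1. Khk, ketohexokinase, and Glud1, glutamate dehydrogenase, had log2 fold changes of -0.08 and 0.27 and did not pass (limma, adjusted p = 0.71 and 0.18). That of Glud1 was 0.17 without Rragc S74N/+ replicate 1.

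**Figure D4:**
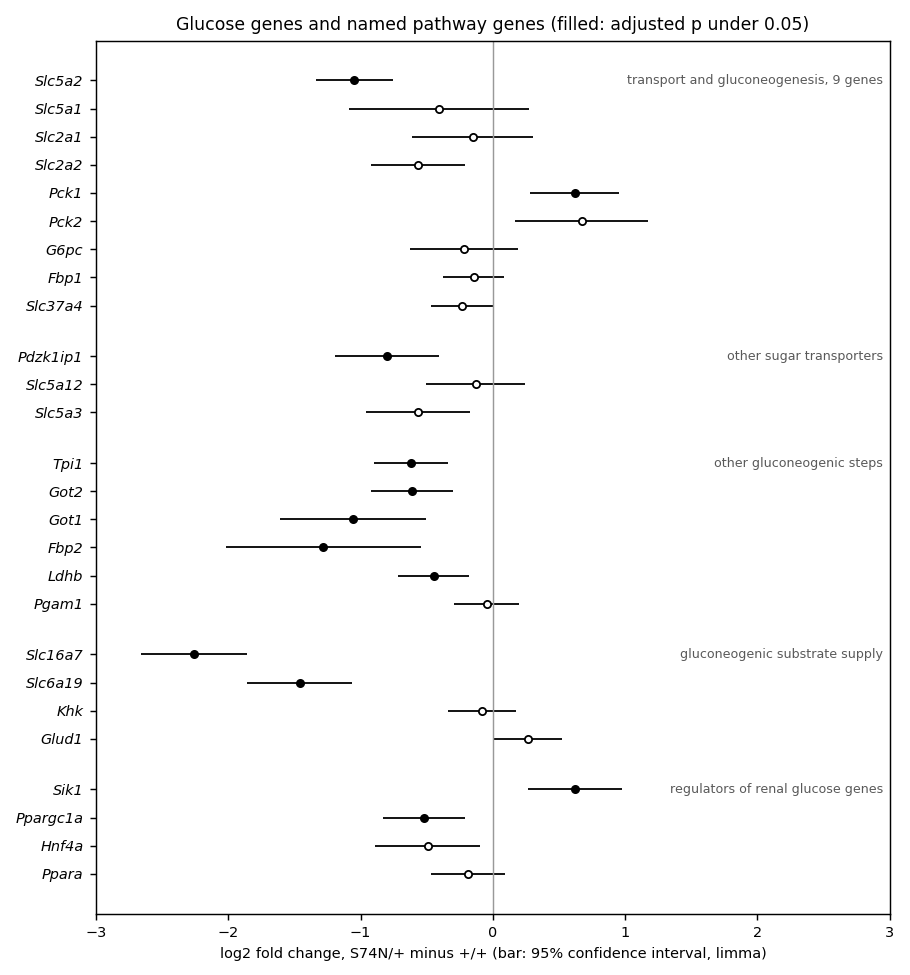
Log2 fold change (horizontal axis, Rragc S74N/+ minus Rragc +/+) with its 95% confidence interval from limma for the 9 genes and the named genes of the 4 pathway lists (vertical axis). Filled points passed an adjusted p under 0.05. Slc16a7 at -2.26 lies furthest left, and Pck1 and Sik1 are the filled points right of 0.

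Of 20 regulators of renal glucose genes 19 were tested, 1 rose and 1 fell. Sik1, a kinase induced by cAMP that restrains CREB coactivators, had 49.6 ± 8.73 and 76.1 ± 6.19 normalized counts (SD, n = 5; log2 fold change 0.62, limma, adjusted p = 0.040), and the call was lost in 7 of 10 fits without 1 library. Ppargc1a, a coactivator of oxidative and gluconeogenic genes, had 304 ± 27.5 and 214 ± 42.9 (SD, n = 5; log2 fold change -0.52, limma, adjusted p = 0.047), lost in 8 of 10 such fits. Without Rragc S74N/+ replicate 1 the log2 fold change of Ppargc1a was -0.40. Hnf4a, a nuclear receptor of proximal tubule identity, had 926 ± 107 and 682 ± 194 (SD, n = 5; log2 fold change -0.49, or -0.29 without Rragc S74N/+ replicate 1, limma, adjusted p = 0.12 with all kidneys). Ppara, the fatty acid receptor, had a log2 fold change of -0.19 that was 0.060 under the proximal tubule scaling (limma, adjusted p = 0.39 as reported).

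Markers of each tubule segment were read beside Slc5a2 and Pck1. Of 12 general proximal tubule markers 0 rose and 3 fell, namely Gatm, an enzyme of creatine synthesis (log2 fold change -1.03), Slc7a9, a cystine carrier (-1.07, or -0.72 without Rragc S74N/+ replicate 1), and Dab2, an endocytic adaptor (-0.47). Slc7a9 lost its call in 6 and Dab2 in 8 of 10 fits without 1 library (limma, adjusted p up to 0.10 and 0.11). The log2 fold change of Dab2 was -0.35 without Rragc S74N/+ replicate 1. The summed level of the 12 was 44416 to 53062 in Rragc +/+ and 39753 to 56964 in Rragc S74N/+ kidneys. Of 7 markers of the S1 and S2 segments, where SGLT2 resides, 0 rose and 2 fell. Slc34a3, a phosphate carrier, had 57.6 to 120 normalized counts in Rragc +/+ and 0.97 to 4.66 in Rragc S74N/+ kidneys, and Slc7a8, a basolateral amino acid carrier, had means of 258 and 88.1. The summed level of these 7 markers overlapped, at 27327 to 34025 against 27738 to 33054. Of 7 S3 markers 0 were called by limma, edgeR or DESeq2, also 0 at an unadjusted p under 0.05, and their sums were 8257 to 10801 and 5845 to 11426. Among all 13236 tested genes, 3360 had an unadjusted p under 0.05 (limma). With samples scaled to equal proximal tubule marker levels, Slc5a2 fell by 0.80 and Pck1 rose by 0.87 on the log2 scale, and both passed. This scaling used the mean log2 level of the 12 general markers, among them the 3 called lower. Its offset was -0.68 in Rragc S74N/+ replicate 1, against -0.10 to 0.14 in the other Rragc S74N/+ kidneys.

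Other cell types moved too, and their part in the results above was not tested. Leukocyte markers had 4 of 7 higher, with summed levels of 1113 to 1487 against 2144 to 2929. Tubule injury markers had 3 of 5 higher, fibroblast markers 2 of 5 and podocyte markers 1 of 5. All 4 distal convoluted tubule markers were lower, with sums of 4477 to 5597 against 1365 to 2130, as were 2 of 5 of the thick ascending limb and 1 of 6 of the endothelium. Collecting duct markers had 1 of 7 higher and 1 lower. For the unadjusted counts that follow, the share among all tested genes was 3360 of 13236 at an unadjusted p under 0.05 (limma). Of 4 erythroid genes 0 passed by limma or edgeR and 1 by DESeq2, with a median log2 fold change of -1.17 and 4 at an unadjusted p under 0.05. Of 9 clock genes 0 passed by limma, edgeR or DESeq2, and 0 at an unadjusted p under 0.05. Of 7 other genes that respond to fasting 0 passed by limma, edgeR or DESeq2, and 1 did at an unadjusted p under 0.05. The labels give neither the hour of collection nor the feeding state. The 4 Y-linked genes tested were detected in all 10 kidneys, at summed levels of 369 to 505, and 0 of them passed by any of the 3 tools, also 0 at an unadjusted p under 0.05.

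Among the 9 genes, deviations from the genotype mean over the 10 kidneys were compared as a description, without a test, since all points share their libraries. Slc5a1 varied with G6pc (r = 0.81) and with Slc2a2 (r = 0.80), and Slc2a2 with Fbp1 (r = 0.81). Without Rragc S74N/+ replicate 1 these were 0.70, 0.58 and 0.70 over 9 kidneys. Pck1 ran against Slc2a2 (r = -0.67, or -0.58 without that library). Rragc S74N/+ replicate 1, with the lowest Slc5a1, Slc2a2, G6pc, Fbp1 and Slc37a4 of all 10 kidneys, had the highest Pck1 and Pck2.

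Among 7742 other genes with a mean of at least 50, those most like each of the 9 in these deviations were picked as the highest r over 10 kidneys. With so many genes and so few kidneys, a high r can arise by chance, which was not tested. Slc5a2 was closest to Sdr39u1 (r = 0.92), Rap2b (0.92) and Hdac2 (0.91). Slc2a2 was closest to Ptcd2 (0.98), Pafah2 (0.96) and Smurf2 (0.96), and Slc5a1 to Ccdc12 (0.99), Zfp617 (0.98) and Slc31a1 (0.97). Pck1 was closest to Cbfa2t3 (r = 0.96), Scd2 (0.92) and Pim1 (0.90). For Slc2a1, Igsf8 (r = 0.96) and Cdk9 (0.95) were among the closest. The closest genes to Pck2, G6pc, Fbp1 and Slc37a4 were Gm44950 (0.94), Rspry1 (0.94), C1galt1 (0.94) and Dcaf7 (0.98). Without Rragc S74N/+ replicate 1 the r of Slc5a2 and Sdr39u1 was 0.90, that of Slc2a2 and Ptcd2 0.96 and that of Pck1 and Cbfa2t3 0.96.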

How the data were processed

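Whole-kidney RNA of 10 mice was sequenced from the 3′ end with a stranded, oligo-dT primed kit. The authors checked reads with FastQC 0.11.7, aligned them to GRCm39 with TopHat2 2.0.10, Bowtie 1.0.0 and SAMtools 0.1.19, and obtained stranded gene counts with HTSeq 0.6.1. The deposited values are signal values: counts divided by a size factor of each sample by the authors. The table had 13299 genes, with no mean under 4.37. In all 10 samples, 100% of the values gave whole reads within 0.01 after division by the value of 1 read. For 2 of them, Rragc +/+ replicate 5 and Rragc S74N/+ replicate 3, this value was so near 1 that the recovery has less weight. Replicates were numbered in order of deposit. Nothing in the labels says more on how the animals were bred or sampled, so p-values measure the spread between these samples.

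Genes with at least 5 normalized counts in at least 5 samples (13236, with 63 removed) were fitted as log2(normalized count + 1) with limma 3.58.1 in R 4.3.3, genotype as the term and a variance trend, two-sided, at an adjusted p under 0.05. This scale understates the change of low genes. Ratios used the exact permutation test in Python 3.11.15. Tools were tested on simulated counts with the same dispersion for every gene and no library set apart. That test does not show how they behave on these data. Alternatives covered pseudocounts, filters, scalings, variance models, a block for label numbers, edgeR 4.0.16 and DESeq2 1.42.0 on recovered reads, and leaving out each library. Scaling without mitochondrial transcripts and fits within label ranges were added after seeing the data. The 9 genes, the 4 pathway lists and the 15 marker lists were chosen with earlier results of these data known. The text names, per pathway list and for the proximal tubule lists, up to 6 called genes by smallest adjusted p and, for the pathway lists, the 2 others with the highest mean, and for each of the 9 genes those most like it among genes with a mean of at least 50. Results on some genes that this rule names are not reported here.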

Additional observations from a re-analysis of the deposited data

Results flagged for a closer look

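In 28 groups of 5 kidneys, the values of genes and ratios were searched for a library far from the other 4 by Dixon's test, and 2 were found where chance alone gives about 1 in 20 groups, or 1.4. The ratio of Slc5a2 to Slc5a1 was 6.57 in Rragc S74N/+ replicate 1, and 1.23 to 2.70 in the other 4 Rragc S74N/+ kidneys. The ratio of Pck1 to Pck2 was 43.0 in Rragc +/+ replicate 2, and 32.0 to 34.9 in the other 4 Rragc +/+ kidneys.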

How the results depend on the processing

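Slc5a2 passed the threshold in all 15 alternatives, with log2 fold changes of -1.05 to -0.80, and in all 10 fits that left out 1 library, with -1.14 to -0.96. The number of all genes past the threshold was 798 as reported, 391 without the variance trend, 1354 with DESeq2, 46 within the lower range of label numbers and 311 to 902 without 1 library. Of the 9 genes, 2 passed as reported, 1 without the variance trend, 1 within the lower range, and 1 to 3 without 1 library. Pck1 was the gene lost in both settings (limma, adjusted p = 0.095 and 0.14). Of the pathway genes, 11 passed as reported, 6 under the proximal tubule scaling, 3 without the trend, 2 within the lower range and 3 to 13 without 1 library. Of all called genes 57.3% were higher, against 76.1% under equal totals, 68.9% under equal totals without mitochondrial transcripts and 87.7% under the proximal tubule scaling, which moved the median over all genes from -0.01 to 0.23 on the log2 scale. Under that scaling the sign turned for Slc2a1 (0.093), G6pc (0.030), Fbp1 (0.10), Slc37a4 (0.011), Slc5a12 (0.12), Pgam1 (0.20), Khk (0.16) and Ppara (0.060). Pgam1 also turned under equal totals (0.034) and in the lower range (0.034), and Slc5a1 (0.44), G6pc (0.30) and Fbp1 (0.014) did in the higher range. Without 1 library, Slc2a1 spanned -0.27 to 0.022. The log2 differences of the ratios spanned -0.96 to -0.36 for Slc5a2 to Slc5a1, -0.71 to -0.25 for Slc2a2 to Slc2a1, -0.18 to 0.043 for Pck1 to Pck2, -0.096 to 0.13 for G6pc to Slc37a4 and -0.55 to -0.30 for Slc5a2 to Slc2a2. The cause of these shifts was not tested. No paired analysis was possible because the labels carry no replicate numbers. Depth limits Pck2, Slc2a1, Fbp2 and Sik1, which had at most 100 reads in any library.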

Other observations

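Some other steps of the pathway lay just short of the threshold. Mpc2, a subunit of the carrier that brings pyruvate into mitochondria, had 1476 ± 183 normalized counts in wild-type and 990 ± 269 in mutant kidneys (SD, n = 5), with groups that did not overlap (limma, adjusted p = 0.054). Slc25a11, the mitochondrial carrier of malate and 2-oxoglutarate, had 366 ± 24.2 and 278 ± 38.8 (SD, n = 5), with groups that did not overlap either (limma, adjusted p = 0.056). Mpc2 and Slc25a11 passed with DESeq2 and not with edgeR. These 2 genes were chosen after their values had been seen.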
